A study of Rattus norvegicus with 119 samples.

Results

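The miR-17-92 cluster is a group of microRNAs (miRNAs, short RNAs that guide silencing proteins to messenger RNAs) whose hairpins lie side by side and are cut from a shared primary transcript. Its members here were the array's rno-miR-18a, rno-miR-19a, rno-miR-19b, rno-miR-20a and rno-miR-92a and every name that starts with rno-miR-17-, which added rno-miR-17-5p and rno-miR-17-1-3p; the prefix rno, for rat, is left out from here on. These were 7 of the 301 rat miRNAs in the deposited table. As background, the cluster is known for promoting proliferation and survival, is switched on directly by the transcription factor MYC, and is amplified or highly expressed in many tumours. The miR-17 and miR-20a family is known to repress cell-cycle inhibitors such as Cdkn1a, and in mouse lymphoma models the miR-19 strands are known as the cluster's main oncogenic members. In mouse endothelium miR-92a is known to limit vessel growth.

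The samples were urothelium, the epithelial lining of the bladder, scraped from Sprague-Dawley rats of both sexes, with no age given. Treatment by mouth lasted 3, 28 or 90 days, and daily doses were 16 mg/kg or 63 mg/kg of pioglitazone hydrochloride, 10 mg/kg of rosiglitazone maleate, or the vehicle alone (0.5% methylcellulose). Both drugs are thiazolidinediones, which activate the nuclear receptor PPAR gamma, and the series' design text gives the low pioglitazone dose as 13 instead of 16. The 4 treatments, 2 sexes and 3 times made 24 groups. Per sex and group 10 rats were dosed and 5 profiled (4 arrays in 1 group), each on an Agilent miRNA array with a single dye. No transgene or sort was involved, so every cell type taken up by the scalpel contributed RNA. The groups are called by drug and dose, as pioglitazone 63, and all values are log2 intensities as deposited.

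The mature strands are shown because their seeds group the members and because close copies bear on what a probe can tell apart. Sequences are from RefSeq (GRCr8), 5′ to 3′, and the capitals mark the seed, bases 2 to 8. Names without an arm were matched to the main strand under the older naming.
miR-17-5p: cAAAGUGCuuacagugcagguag
miR-20a: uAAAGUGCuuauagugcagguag
miR-18a: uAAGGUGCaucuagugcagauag
miR-19a: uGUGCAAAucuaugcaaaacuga
miR-19b: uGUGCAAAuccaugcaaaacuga
miR-92a: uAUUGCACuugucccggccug
miR-17-1-3p: aCUGCAGUgaaggcacuugugg
miR-17-5p and miR-20a shared the seed AAAGUGC with the relatives miR-106b, miR-93 and miR-20b-5p. miR-19a and miR-19b shared GUGCAAA, and miR-92a shared AUUGCAC with miR-25 and miR-32. Counting positions from 1 at the 5′ end, miR-19a and miR-19b differed by 1 base (U11C), and miR-17-5p and miR-20a by 2 (C1U and C12U). Whether the probes separate such pairs is not stated in the sources used here.

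In GRCr8 the cluster ran along the plus strand of chromosome 15, from Mir17 (chr15:98587848-98587931) through Mir18a (chr15:98587984-98588079), Mir19a (chr15:98588131-98588212), Mir20a (chr15:98588303-98588387) and Mir19b1 (chr15:98588433-98588519) to Mir92a1 (chr15:98588555-98588632). The 6 hairpins spanned 785 bases. No other gene of the annotation overlapped them, and it held no host transcript of the cluster. Their listing here as neither exonic nor intronic thus reflects the annotation used. The next gene was Gpc5, 25867 bases on. The mature sequences of miR-17-5p, miR-19b and miR-92a were also listed from hairpins of a second cluster, on the minus strand of chromosome X (Mir106a, Mir19b2 and Mir92a2). The array cannot tell the sources of these 3 apart, whereas miR-17-1-3p, miR-18a, miR-19a and miR-20a were listed from chromosome 15 alone.

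**Figure D1:**
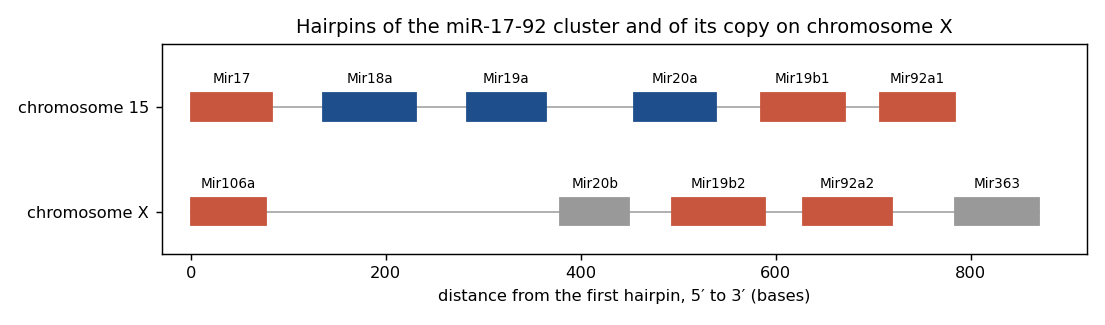
Position of each hairpin in bases from the first one, 5′ to 3′, for the cluster on chromosome 15 and its copy on chromosome X. Red boxes mark hairpins whose mature strand is listed from both chromosomes (miR-17-5p, miR-19b and miR-92a), blue boxes those listed from chromosome 15 alone, and grey boxes neighbours on chromosome X that are not members.

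The table held 119 arrays, of which 3 were marked in the labels as failing quality control and were left out. All came from day 28: vehicle male replicate 2 and, among pioglitazone 16 females, replicates 1 and 5. That left 116 arrays, with 3 or 4 arrays in 3 groups and 5 in the other 21 (pioglitazone 16 males at day 28 had 4 from the start). Values ran from 2.69 to 16.87 and array medians from 3.70 to 5.66, so arrays differed in overall brightness. Of all values, 5% lay below 3.19 and 25% below 3.64, a floor near which differences are compressed. The tissue label was checked on 10 epithelial miRNAs (the miR-200 family, miR-203, miR-205 and the miR-183 cluster), whose mean was 10.10 to 11.31 in the male day-28 groups. Each array is taken as 1 rat, as the labels read.

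miR-19a ranged from 3.27 to 8.46 over the 116 arrays with a median of 7.54. The median of miR-17-5p was 6.86 (3.27 to 7.94), that of miR-20a 9.31 (4.37 to 10.41) and that of miR-18a 5.17 (2.98 to 6.39). For miR-19b it was 9.33 (3.24 to 10.72) and for miR-92a 9.05 (3.17 to 10.02). These medians belong to different probes and cannot be ranked against each other. miR-17-1-3p, the other strand of the Mir17 hairpin, stayed between 3.03 and 3.73 on all 116 arrays and had the smallest within-group SD (0.14) of the 301 miRNAs, all of it near the floor. miR-19b varied most among the members, with a within-group SD of 2.08, and 293 of 301 miRNAs varied less.

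Vehicle males at day 28 had the lowest mean of the 24 groups for every member except miR-92a. For miR-19a their mean was 3.76 ± 0.37 (SD, n = 4) and the next group up, pioglitazone 16 males at day 28, was at 6.44 ± 2.26 (SD, n = 4). That gap of 2.68 exceeded the within-group SD of 1.13, while the other 23 means lay within 1.52 of each other with no gap above 0.21. For miR-20a the gap to the next group was 1.07 beside a within-group SD of 1.06. For miR-17-5p (0.78), miR-19b (1.0) and miR-18a (0.44) the gap was smaller than the within-group SD (1.42, 2.08 and 0.72). For miR-17-1-3p, near the floor on all 116 arrays, the gap was 0.01 (3.14 against 3.15) beside a within-group SD of 0.14. Further up the order, neighbouring means differed by less than the within-group SD for every member except miR-18a, where 0.74 separated pioglitazone 16 from rosiglitazone 10 in males at day 28. For miR-18a the male day-28 groups, treated ones included, were the 4 lowest of all. Their means were 3.23 with vehicle, 3.67 with pioglitazone 16, 4.42 with rosiglitazone 10 and 4.46 with pioglitazone 63. miR-92a was lowest in females given pioglitazone 16 for 28 days, at 7.51 ± 3.38 (SD, n = 3). The highest means fell in different groups, such as pioglitazone 63 males at day 3 for miR-17-5p (7.19 ± 0.41) and miR-18a (5.76 ± 0.38), vehicle males at day 90 for miR-19a (7.96 ± 0.36) and vehicle females at day 28 for miR-19b (10.09 ± 0.21; SD, n = 5 each).

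**Figure D2:**
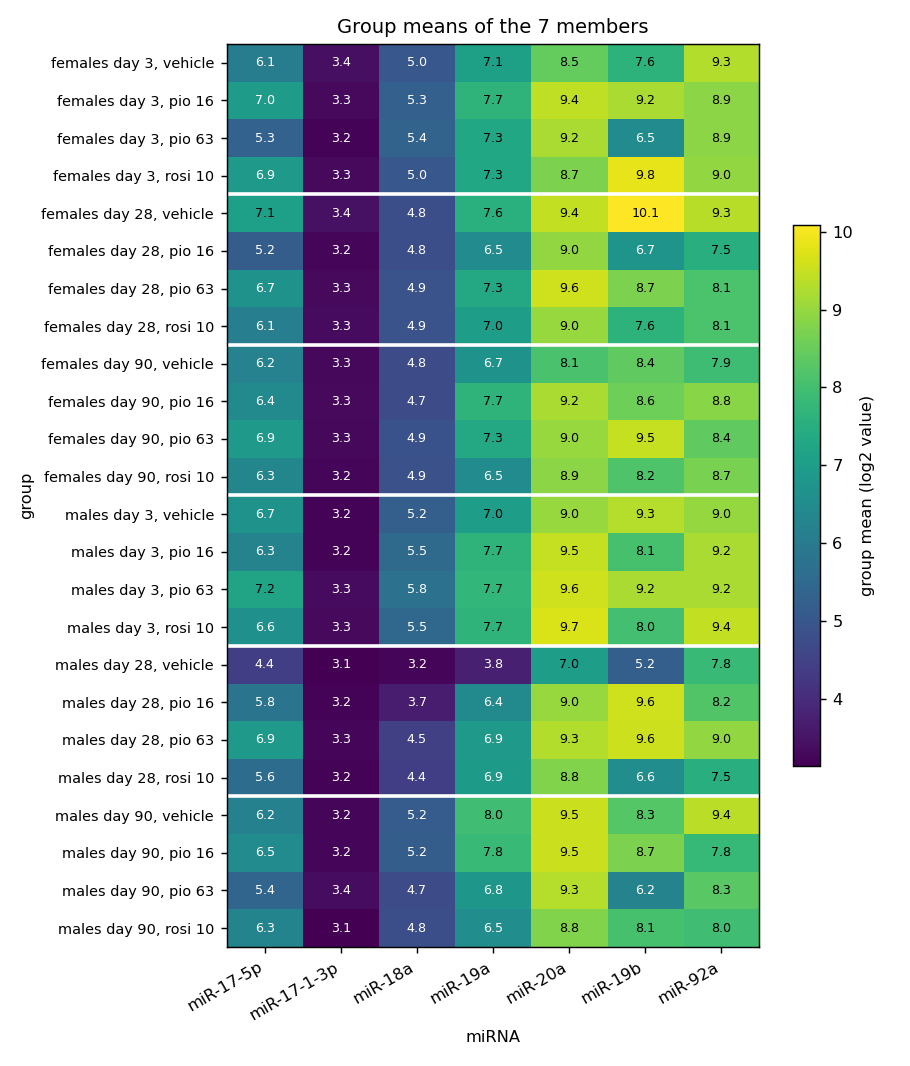
Mean log2 value of each member (columns) in each of the 24 groups (rows, by sex, day and treatment); pio is pioglitazone and rosi rosiglitazone, with the dose in mg/kg/day. The row of vehicle males at day 28 holds the lowest mean in every column but that of miR-92a, though by 0.01 for miR-17-1-3p. For miR-19a it reads 3.76 against 6.44 to 7.96 in the other rows.

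In males at day 28, most members were higher with pioglitazone 63 than with vehicle. That vehicle group had the lowest mean of the 24 groups for every member except miR-92a, as given above. By limma with Benjamini-Hochberg adjustment over all 301 miRNAs at a threshold of 0.05, 5 of the 7 members rose and 0 fell, where 65 of 301 miRNAs (21.6%) rose and 47 (15.6%) fell. The 5 were both miR-19 strands, miR-20a, miR-17-5p and miR-18a. Their share stood above the background, and the median difference over the 7 members was 2.27 against 0.37 over all miRNAs. The 5 were read on the same arrays, so they are not separate observations, and the share was not tested. With rosiglitazone 10, 1 member rose (22 of 301 rose, 7.31%, and 52 fell, 17.3%), and with pioglitazone 16, 2 rose (13 of 301 rose, 4.32%, and 25 fell, 8.31%), with member medians of 1.19 and 1.41 against 0.16 and 0.01 over all miRNAs. The 3 comparisons share the same 4 vehicle arrays, so their agreement is not independent. Within pioglitazone 63 males, day 28 differed from days 3 and 90 in 0 of 301 miRNAs by limma. Within vehicle males it differed in 156 of 301 (51.8%).

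miR-19a was read at 4.31, 3.64, 3.62 and 3.49 in the vehicle males at day 28. With pioglitazone 63 it was 7.37, 7.20, 7.92, 6.30 and 5.67. All 5 treated arrays lay above every vehicle array. The log2 difference was 3.13 (SE 0.75, 95% interval 1.64 to 4.62, limma adjusted p = 0.000461). Since 3 of the 4 vehicle arrays lay below 4, near the floor, the differences of miR-19a from this group may be understated. With rosiglitazone 10 the arrays read 7.69, 7.37, 7.39, 4.25 and 7.93, and with pioglitazone 16 they read 3.27, 8.08, 8.03 and 6.38. Thus 4 of 5 rosiglitazone arrays and 3 of 4 pioglitazone 16 arrays exceeded all vehicle arrays, and the lowest array of the latter was below all of them. The differences were 3.16 (SE 0.75, limma adjusted p = 0.00043) and 2.68 (SE 0.79, limma adjusted p = 0.0164).

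miR-19b, which differs from miR-19a at a single base, was more variable. Vehicle arrays read 8.94, 4.36, 4.44 and 3.24, and pioglitazone 63 arrays 10.34, 8.89, 10.36, 8.71 and 9.53. The first vehicle array overlapped the treated ones and the other 3 did not. The difference was 4.32 (SE 1.38, 95% interval 1.59 to 7.05, limma adjusted p = 0.00966). Pioglitazone 16 arrays read 7.33, 10.56, 10.02 and 10.47, a difference of 4.35 (SE 1.45, limma adjusted p = 0.0346). Rosiglitazone arrays read 10.02, 6.6, 6.30, 4.09 and 5.77 and overlapped the vehicle group, with a difference of 1.31 (95% interval -1.42 to 4.04, limma adjusted p = 0.545).

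miR-20a, of the cell-cycle regulating miR-17 family, read 8.89, 6.32, 6.47 and 6.41 with vehicle and 9.64, 9.04, 9.75, 8.71 and 9.35 with pioglitazone 63. Of the treated arrays 4 lay above every vehicle array. The difference was 2.27 (SE 0.71, limma adjusted p = 0.00783). Rosiglitazone arrays read 9.89, 9.15, 9.75, 4.72 and 10.35 and pioglitazone 16 arrays 7.15, 9.70, 9.63 and 9.62. Here 4 of 5 and 3 of 4 arrays exceeded all vehicle arrays, yet neither difference passed (1.75, limma adjusted p = 0.0568, and 2.0, limma adjusted p = 0.0608).

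miR-17-5p, with the same seed as miR-20a, read 7.53, 3.40, 3.46 and 3.27 with vehicle and 7.21, 6.87, 7.85, 6.22 and 6.15 with pioglitazone 63. The groups overlapped through the first vehicle array, and 1 treated array lay above it. The difference was 2.45 (SE 0.94, limma adjusted p = 0.0337). With rosiglitazone 10 it read 7.56, 6.06, 5.82, 3.87 and 4.74 and with pioglitazone 16 3.37, 7.17, 6.36 and 6.40, differences of 1.19 and 1.41 that did not pass (limma adjusted p = 0.412 and 0.468).

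miR-18a, whose seed departs from that of miR-17-5p at a single base, lay near the floor in vehicle males at 3.61, 3.10, 3.25 and 2.98. With pioglitazone 63 it read 4.33, 5.19, 5.57, 3.72 and 3.51, a difference of 1.23 (SE 0.48, limma adjusted p = 0.0355). Rosiglitazone arrays read 5.55, 4.65, 3.73, 4.32 and 3.85, and all 5 lay above the vehicle arrays, but the difference of 1.18 did not pass (limma adjusted p = 0.0568). Pioglitazone 16 arrays read 3.33, 3.68, 4.33 and 3.36, a difference of 0.44 (limma adjusted p = 0.790). miR-92a, which ends the cluster, read 8.99, 7.43, 8.23 and 6.63 with vehicle and 9.39, 8.6, 9.36, 8.33 and 9.16 with pioglitazone 63. Its difference was 1.15 (95% interval -0.67 to 2.97, limma adjusted p = 0.347), and with rosiglitazone 10 and pioglitazone 16 it was -0.29 and 0.37. miR-17-1-3p differed by 0.05 to 0.13 in the 3 comparisons.

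**Figure D3:**
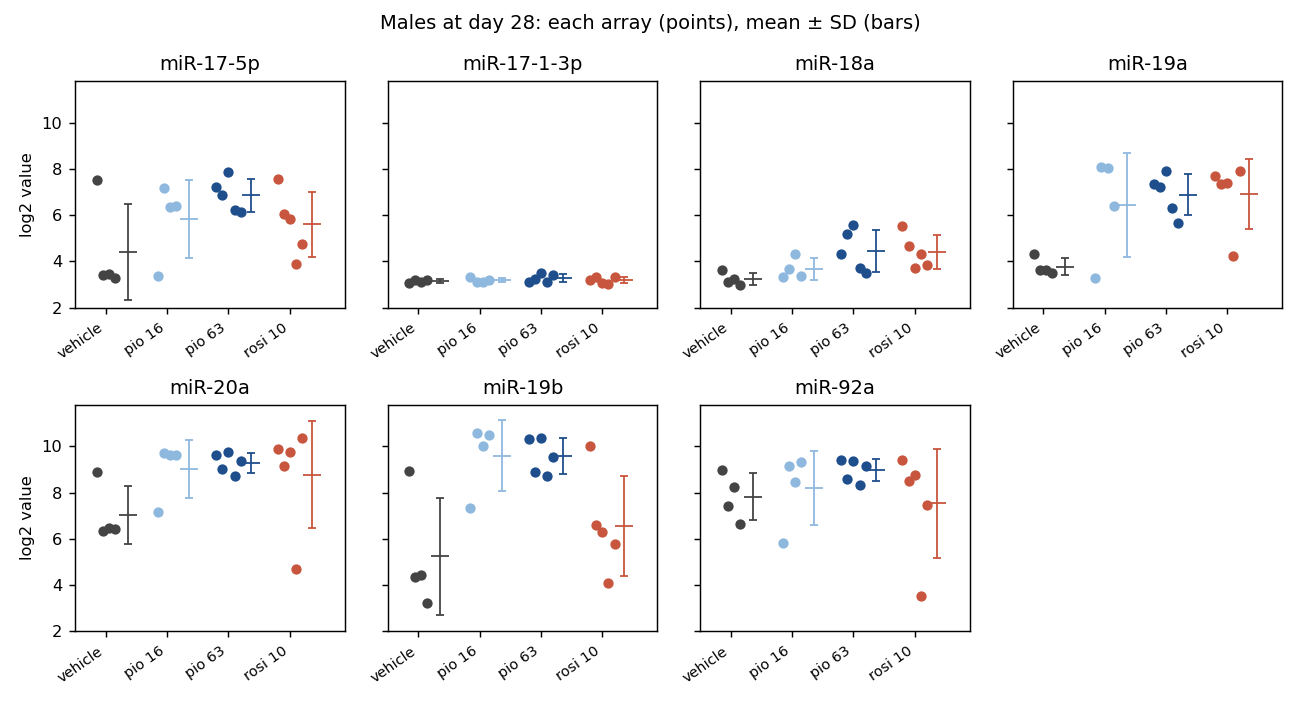
Log2 value of each member on each male day-28 array (points, in replicate order) by treatment, with the mean ± SD beside them (pio, pioglitazone; rosi, rosiglitazone; dose in mg/kg/day; n = 4, 4, 5 and 5 from left to right). The 4 vehicle arrays of miR-19a sit between 3.49 and 4.31, and the first vehicle array lies above the other 3 for miR-17-5p (7.53), miR-20a (8.89) and miR-19b (8.94).

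By the exact permutation test on the arrays of each male day-28 comparison, two-sided, 0 members passed after adjustment over 301 miRNAs. At an unadjusted p under 0.05 it counted 5, 2 and 0 members for pioglitazone 63, rosiglitazone 10 and pioglitazone 16. The 5 were not the same members as by limma, since miR-92a was among them (exact p = 0.0476) and miR-17-5p was not (exact p = 0.0635). For miR-19a with pioglitazone 63 the exact p was 0.00794 (adjusted 0.114), which is the smallest that 5 against 4 arrays allow. The smallest for 4 against 4 is 0.0286. With that minimum a miRNA can pass the adjustment only if most of the 301 reach it. The adjusted 0 for pioglitazone 16 therefore decides nothing. With only the arrays of the comparison in the fit, 3, 0 and 0 members passed.

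The count of 5 with pioglitazone 63 was 3 without pioglitazone 63 replicate 2 or 3 or vehicle replicate 3 or 4, and 2 without vehicle replicate 5. miR-19a and miR-20a passed in each of these 9 fits, with differences of 2.87 to 3.43 and 2.04 to 2.90. The count of 1 with rosiglitazone 10 was 2 without rosiglitazone replicate 3, 4 or 5 and 3 without vehicle replicate 1, and miR-19a passed in each of its 9 fits (2.91 to 3.83). Rosiglitazone replicate 4 had the lowest value of its group for every member except miR-18a, and an array median of 3.76. Without it miR-20a differed by 2.76 (limma adjusted p = 0.000512). The count of 2 with pioglitazone 16 was 0 without pioglitazone 16 replicate 2 or 3 or vehicle replicate 3, 4 or 5, 1 without pioglitazone 16 replicate 4, and 3 without replicate 1 of either group.

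Array brightness moved with these results. The mean array median was 4.29 ± 0.37 in vehicle males at day 28 (SD, n = 4), 4.85 ± 0.70 with pioglitazone 63, 4.48 ± 0.80 with rosiglitazone 10 (SD, n = 5 each) and 4.89 ± 0.70 with pioglitazone 16 (SD, n = 4). Centring each array on its median moved the median of all miRNAs from 0.37 to -0.19, from 0.16 to -0.03 and from 0.01 to -0.60. After centring, 4 members were higher with pioglitazone 63 (miR-19a 2.56, miR-19b 3.75, miR-20a 1.71 and miR-17-5p 1.88), whereas miR-18a did not pass (0.66, limma adjusted p = 0.175). miR-19a also passed after centring with rosiglitazone 10 (2.97) and pioglitazone 16 (2.07), and miR-17-1-3p turned from 0.13 to -0.44 with pioglitazone 63 without passing. Quantile normalization gave 43 higher and 57 lower miRNAs in place of 22 and 52 for rosiglitazone 10 (37 and 55 when the array median was a covariate), and 22 and 21 in place of 13 and 25 for pioglitazone 16, with miR-19a at 3.53 and 2.21 and passing in both.

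Markers of several other cell types were also higher with pioglitazone 63 in males at day 28, and their counts stand beside the 21.6% of all miRNAs that rose. The mean of 2 endothelial miRNAs (miR-126 and miR-126*) was 3.84 to 6.59 over the vehicle arrays and 6.19 to 8.14 with pioglitazone 63, and 1 of the 2 rose. Of 5 leukocyte miRNAs 3 rose with pioglitazone 63 (list mean 4.25 to 5.80 with vehicle, 5.30 to 6.94 with the drug), as did 3 of 4 fibroblast and 2 of 3 red blood cell miRNAs. The counts of 1 of 6 muscle and 2 of 10 epithelial miRNAs were near that share. List means of the fibroblast, red cell and muscle lists were 4.42 to 5.78, 3.43 to 5.34 and 3.51 to 8.16 with vehicle, and 4.75 to 8.36, 5.53 to 7.92 and 4.46 to 9.72 with pioglitazone 63. With rosiglitazone 10 (7.31% of all rose) 1 endothelial and 1 leukocyte miRNA rose, and with pioglitazone 16 (4.32%) 1 endothelial and 1 epithelial miRNA. The part of these cells in the members' values was not tested, and in scraped tissue fewer cells of a type cannot be told apart from less RNA per cell.

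The vehicle males at day 28 were then set against vehicle rats of other days and of the other sex. Compared with vehicle males at days 3 and 90, 5 of 7 members were lower (108 of 301 miRNAs, 35.9%, were lower and 48, 15.9%, higher), with a median of -2.03 for the members and -0.66 for all miRNAs. miR-19a read 5.79, 8.24, 6.92, 7.30 and 6.78 at day 3 and 8.18, 8.46, 7.60, 7.93 and 7.65 at day 90. Every one of these 10 arrays lay above the highest vehicle male at day 28 (4.31), and the difference was -3.72 (SE 0.66, limma adjusted p = 1.72e-06).

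miR-18a was 5.24 ± 1.06 and 5.16 ± 0.55 at days 3 and 90 against 3.23 ± 0.27 at day 28 (SD, n = 5, 5 and 4), a difference of -1.97 (limma adjusted p = 6.5e-05). miR-20a differed by -2.26 (limma adjusted p = 0.00159), miR-19b by -3.54 (0.0107) and miR-17-5p by -2.03 (0.0324), and miR-92a by -1.36 without passing (0.149). The count fell to 3 without vehicle replicate 5 of day 28, when miR-17-5p and miR-19b no longer passed. With the array median as a covariate 2 members passed, miR-18a (-1.06) and miR-19a (-2.39), while miR-19b was at -0.31 and miR-17-5p turned to 0.33. The same 2 passed with the replicate block. Centring the arrays turned the split over all miRNAs from 48 higher and 108 lower to 95 higher and 46 lower (67 and 69 under quantile normalization, 55 and 39 when the array median was a covariate) and moved the median of all from -0.66 to 0.45. There, miR-19a (-2.61), miR-19b (-2.43) and miR-18a (-0.85) were still lower, while miR-17-1-3p, at the floor throughout, became higher by 1.03. Mean array medians of vehicle males were 5.49 at day 3 and 5.31 at day 90 beside 4.29 at day 28. In the same contrast 2 of 2 endothelial, 3 of 4 fibroblast, 4 of 5 leukocyte, 3 of 3 red cell and 3 of 6 muscle miRNAs were lower, against 35.9% of all miRNAs, as was 1 of 10 epithelial miRNAs. The part of these cells was not tested.

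In vehicle females the same contrast of days called 0 members by limma (0% of all miRNAs), with 1 at an unadjusted p under 0.05 (miR-20a, 1.18). No exact test was made there because the contrast joins 3 groups. Between the sexes, 6 of 7 members were lower in vehicle males than in vehicle females at day 28 (97 of 301, 32.2%, lower and 50, 16.6%, higher), with a median of -2.43 against -0.42 over all miRNAs. miR-19a read 7.71, 7.79, 7.65, 7.63 and 7.01 in the females and did not overlap the males, a difference of -3.79 (SE 0.75, limma adjusted p = 1.7e-05). miR-19b read 10.03, 10.24, 10.38, 9.89 and 9.93 in the females, also clear of every male array, and differed by -4.85 (SE 1.38, limma adjusted p = 0.00250).

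miR-20a, miR-18a and miR-17-5p differed by -2.43, -1.58 and -2.66 (limma adjusted p = 0.00306, 0.00433 and 0.0148) and miR-17-1-3p by -0.30 (0.0212). The difference in miR-17-1-3p turned to 0.63 with arrays centred and did not pass. Over all miRNAs, the 50 higher and 97 lower became 73 and 55 with arrays centred, 68 and 73 under quantile normalization and 57 and 51 when the array median was a covariate, and centring moved the median from -0.42 to 0.51. miR-19a (-2.86), miR-19b (-3.92), miR-17-5p (-1.73) and miR-20a (-1.5) still passed with arrays centred. Against 32.2% of all miRNAs, 2 of 2 endothelial, 3 of 4 fibroblast, 4 of 5 leukocyte and 2 of 3 red cell miRNAs were lower in the same contrast, and below that share 1 of 6 muscle and 2 of 10 epithelial miRNAs. The endothelial list mean was 6.78 to 8.48 over the female arrays and 3.84 to 6.59 over the male ones, and the part of these cells was not tested. The exact permutation test, two-sided and adjusted over 301 miRNAs, also called 6 members here, with miR-92a (adjusted p = 0.0451) in place of miR-17-5p (adjusted p = 0.0889). At days 3 and 90 vehicle males and females differed in 0 members by limma (0% and 0.332% of all miRNAs). Unadjusted, 0 and 1 had a limma p under 0.05 (miR-20a at day 90, 1.45). Exact permutation gave 0 adjusted at both days, and 0 and 1 unadjusted. That 1 was miR-19a at day 90 (1.28, exact permutation p = 0.0397), whereas miR-20a had an exact permutation p of 0.0635.

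The difference from vehicle at day 28 was more positive in males than in females for the miR-19 strands. The pioglitazone 63 difference of males minus that of females was 3.34 for miR-19a (SE 1.03, limma adjusted p = 0.0107) and 5.70 for miR-19b (SE 1.89, limma adjusted p = 0.0184), where 38 of 301 miRNAs (12.6%) passed in that direction. With rosiglitazone 10 it was 3.72 for miR-19a (limma adjusted p = 0.00408, background 20 of 301, 6.64%). With pioglitazone 16 it was 3.73 for miR-19a and 7.70 for miR-19b (limma adjusted p = 0.0289 and 0.0140, background 12 of 301, 3.99%). The vehicle males at day 28 enter all 3 of these. In the females miR-19a differed from vehicle by -0.21 (pioglitazone 63), -0.56 (rosiglitazone 10) and -1.06 (the low pioglitazone dose), and none passed. Female miR-19b lay further below vehicle, by -1.39 with pioglitazone 63, -2.48 with rosiglitazone 10 and, on 3 arrays, -3.36 with pioglitazone 16 (limma adjusted p = 0.999, 0.416 and 0.365, exact permutation p = 0.0317, 0.127 and 0.0179 unadjusted and 0.551, 0.407 and 0.299 adjusted). The value of 7.70 for miR-19b thus combines 4.35 in males with -3.36 in females. With rosiglitazone 10, quantile normalization moved the 20 higher and 48 lower miRNAs of this contrast to 40 and 53, and with pioglitazone 16 the array median as a covariate moved 12 and 14 to 8 and 15.

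Single arrays bore on these counts. The count of 2 with pioglitazone 63 was 4 without vehicle male replicate 1 and 1 without vehicle male replicate 5 or pioglitazone 63 female replicate 2. With rosiglitazone 10 the count of 1 was 3 without vehicle male replicate 1 and 2 without rosiglitazone male replicate 4. With pioglitazone 16 the count of 2 was 4 without replicate 1 of the vehicle or pioglitazone 16 males. It was 1 without pioglitazone 16 male replicate 2 or 3 or vehicle male replicate 3 or 4, and 0 without vehicle male replicate 5 or pioglitazone 16 female replicate 4. miR-19a passed in each of the 19 fits with pioglitazone 63 and of the 19 with rosiglitazone 10.

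Away from males at day 28, limma called 0 of 105 member tests in the other 15 comparisons with vehicle (7 members in each), where 13 of 4515 tests over all miRNAs (0.288%) passed. At an unadjusted p under 0.05 there were 3, and by the exact permutation test 0 after adjustment and 4 before. Differences ran from -3.36 (miR-19b, females given pioglitazone 16 for 28 days) to 2.20 (miR-19b, females given rosiglitazone 10 for 3 days), and the smallest adjusted p was 0.365. For miR-18a the 9 female differences lay between -0.02 and 0.32, and for miR-19a between -1.06 and 0.99. In males at day 90 miR-19a was 6.81 ± 1.5 with pioglitazone 63 and 6.55 ± 1.57 with rosiglitazone 10 against 7.96 ± 0.36 with vehicle (SD, n = 5 each). These differences of -1.15 and -1.41 ran opposite to those of day 28 and did not pass (limma adjusted p = 0.999 each), although the second had an unadjusted p of 0.0489.

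Averaged over the 6 sex and day combinations, limma called 0 members for each treatment, where 10.6% of all miRNAs passed with pioglitazone 63 (6 higher and 26 lower, 12 and 28 when the array median was a covariate), 11.3% with rosiglitazone 10 (1 and 33, 7 and 36 with the covariate, 4 and 23 under quantile normalization) and 0% with pioglitazone 16. Unadjusted, 1, 0 and 2 members had p under 0.05, and no exact test was made of these means. The largest mean difference was that of miR-20a with pioglitazone 63, at 0.74 (95% interval 0.19 to 1.28, limma adjusted p = 0.0739). It passed with the array median as a covariate (0.71, limma adjusted p = 0.0358) and under quantile normalization (0.54, limma adjusted p = 0.0270). It also passed without vehicle female replicate 4 of day 3 or of day 90, or without vehicle male replicate 1 of day 28, at adjusted p down to 0.0202. With all male day-28 arrays left out, a check added after the data were seen, 0 members passed for each treatment.

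**Figure D4:**
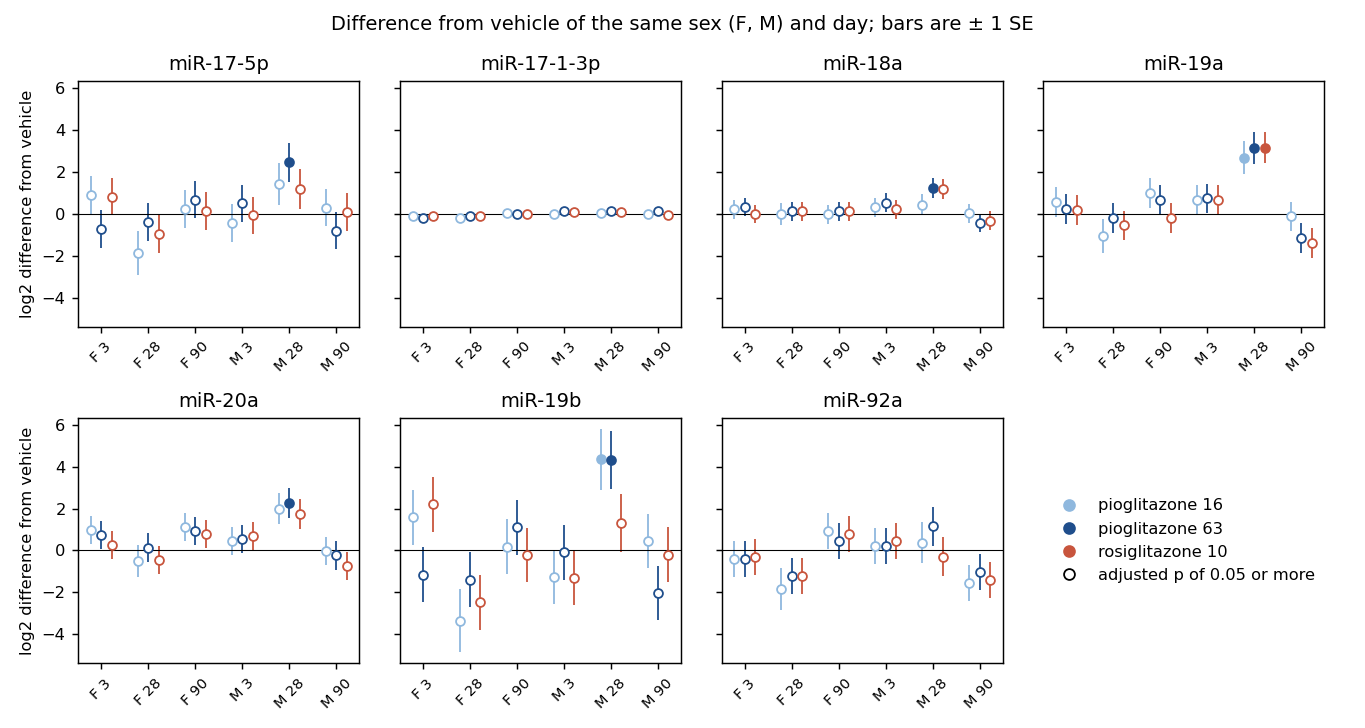
Log2 difference of each treated group from the vehicle group of the same sex (F, M) and day (3, 28, 90), for each member, with bars of ± 1 SE from the fit. Filled points passed an adjusted p of 0.05, and all 8 of them lie at M 28 (males at day 28), 5 with pioglitazone 63, 2 with pioglitazone 16 and 1 with rosiglitazone 10.

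The doses of pioglitazone were compared directly in each sex and day. Limma called 0 of 42 member tests between 63 and 16 mg/kg/day, where 29 of 1806 tests over all miRNAs (1.61%) passed, with 1 member test at an unadjusted p under 0.05 and, by exact permutation, 0 adjusted and 1 unadjusted. In males at day 28 the difference in miR-18a was 0.79 (limma adjusted p = 0.422) and that in miR-19b was -0.03 (0.986). Pioglitazone and rosiglitazone were given at different doses and are set side by side only. Between days 90 and 3, 0 of 56 member tests passed by limma, where 48 of 2408 tests (1.99%) did, with 4 unadjusted and, by exact permutation, 0 adjusted and 3 unadjusted. Within treated groups, day 28 differed from days 3 and 90 in 1 of 42 member tests (5.32% of all 1806 tests). This was miR-18a in males given pioglitazone 16, with a difference of -1.69 (limma adjusted p = 0.00142, where 43 of 301, 14.3%, were lower), at 3.67 ± 0.47 (SD, n = 4) on day 28 against 5.55 ± 0.49 and 5.19 ± 0.88 (SD, n = 5 each) on days 3 and 90. The sex contrasts at days 3 and 90, treatment differences included, called 0 of 56 by limma (0.664% of 2408 tests), with 3 unadjusted, and by exact permutation 0 adjusted and 1 unadjusted of the 14 tests it could be run on.

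The relatives of the cluster on the array were 6 of 16 listed, all outside the locus on chromosome 15. They were miR-106b, miR-106b*, miR-93 and miR-25 of the Mir106b cluster on chromosome 12, miR-20b-5p of the copy on chromosome X, and miR-32 on chromosome 5. The mature strands that share a seed with a member are shown beside the members' own.
miR-106b: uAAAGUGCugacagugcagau
miR-93: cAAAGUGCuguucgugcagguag
miR-20b-5p: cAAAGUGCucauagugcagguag
miR-25: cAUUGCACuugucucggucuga
miR-32: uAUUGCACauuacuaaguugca
In males at day 28, 3 of the 6 rose with pioglitazone 63 (21.6% of all miRNAs did), namely miR-106b by 4.17 (SE 1.25, limma adjusted p = 0.00580), miR-20b-5p by 2.73 (0.00420) and miR-32 by 1.24 (0.0339). Their list median was 1.63 against 0.37 over all miRNAs. miR-25 and miR-93 differed by 1.68 and 1.58 without passing (limma adjusted p = 0.0549 and 0.0872). With pioglitazone 16 miR-106b rose (4.06, limma adjusted p = 0.0300), and with rosiglitazone 10 miR-20b-5p rose (2.24, 0.0256). miR-106b* differed by -0.42 with rosiglitazone 10 (0.00893), but it lay near the floor in both groups, at 3.21 ± 0.09 (SD, n = 5) with the drug and 3.63 ± 0.21 (SD, n = 4) with vehicle. Among the 7 members and 6 relatives together, 5 carried the AAAGUGC seed. Of the 8 that rose with pioglitazone 63, 4 carried it, and the other 4 were miR-18a, both miR-19 strands and miR-32. In vehicle males, day 28 was lower than days 3 and 90 for 5 of the 6, where 35.9% of all miRNAs were lower and 15.9% higher, a split that turned to 95 higher and 46 lower with arrays centred. The sixth, miR-106b*, differed by 0.32 (limma adjusted p = 0.0137), again near the floor. Of 6 listed minor strands 1 was measured, miR-20a*, which stayed near the floor at 3.47 ± 0.08 in vehicle males at day 28 (SD, n = 4) and 3.51 ± 0.45 with pioglitazone 63 (SD, n = 5).

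Members did not vary as a single block from rat to rat. Each array's deviation from its group mean was compared between members over the 116 arrays, which share the array, its brightness and the RNA sample, so the coefficients are descriptions without a test. miR-17-5p and miR-19b deviated together (Pearson r = 0.94, Spearman's rho 0.92), and r was 0.93 without the 2 arrays farthest out, 0.87 over the 98 arrays with both above 4, and 0.89 after centring arrays. Centring also moved their r with miR-17-1-3p, at the floor throughout, from -0.04 and -0.08 to -0.7 each. The centred value of this pair is thus not free of brightness. miR-19a and miR-20a formed a second pair (r = 0.83, rho 0.85, 0.79 without the 2 farthest arrays, 0.79 over the 108 arrays with both above 4, 0.75 centred). Between the pairs the coefficients fell away once arrays were centred. miR-19a and miR-19b, which share a seed and all but 1 base, had r = 0.50 as deposited and 0.04 centred, and miR-17-5p and miR-20a had 0.55 and 0.14.

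The first pair is listed from chromosomes 15 and X and the second from chromosome 15 alone, while miR-92a, also listed from both, had r = 0.65 with miR-17-5p and 0.61 with miR-20a. Brightness moved with the first pair most. The deviation of miR-17-5p had r = 0.90 with that of the array median, and 2 of 301 miRNAs had a higher one. For miR-19b it was 0.84, for miR-18a 0.68, miR-92a 0.67, miR-19a 0.63 and miR-20a 0.50, and the median over all miRNAs was 0.30. The part of brightness in the pairing was not tested. The example of pioglitazone 16 males at day 90 shows the split, where replicate 5 read 3.40 for miR-17-5p, 4.13 for miR-19b and 3.17 for miR-92a, but 8.09 for miR-19a and 9.76 for miR-20a. Its 4 companions read 6.93 to 7.63, 9.38 to 10.31 and 8.51 to 9.24 for the first 3. Not every array with a low median split so, and vehicle female replicate 2 of day 90 was low for both pairs. It read 3.34 for miR-17-5p, 3.68 for miR-19b, 4.35 for miR-19a and 4.37 for miR-20a.

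**Figure D5:**
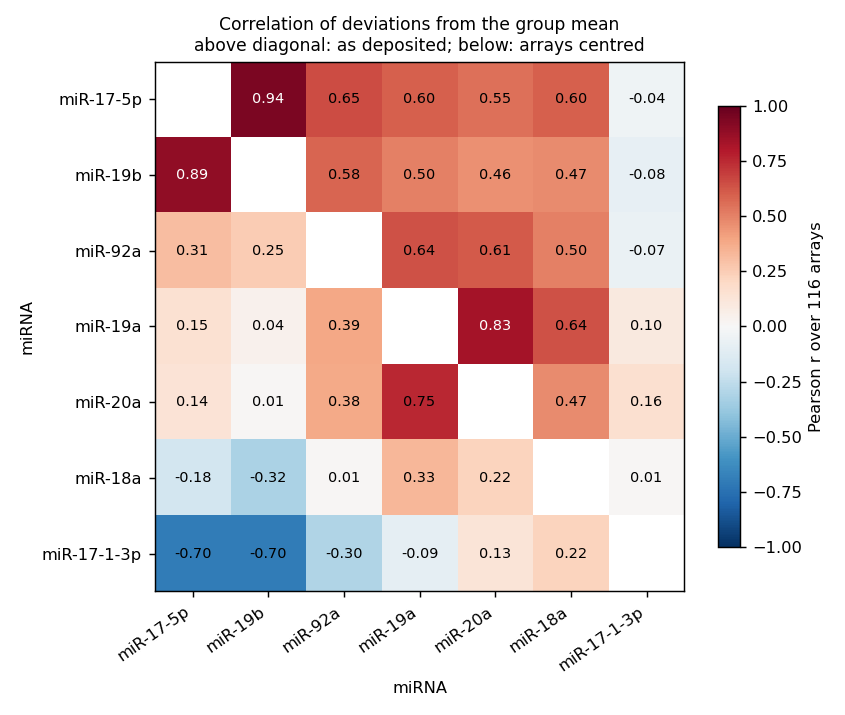
Pearson correlation between members of each array's deviation from its group mean over 116 arrays, as deposited above the diagonal and with arrays centred on their median below it. miR-17-5p with miR-19b (0.94 and 0.89) and miR-19a with miR-20a (0.83 and 0.75) stay high on both sides, while the coefficients between the pairs lie at 0.15 or below after centring.

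The 5 other miRNAs whose 24 group means ran most like the mean profile of the members were miR-151 (r = 0.94), miR-128 (0.93), miR-26b (0.91), miR-31 (0.90) and the relative miR-106b (0.88). Without vehicle males at day 28 these were 0.87, 0.87, 0.81, 0.82 and 0.81 over 23 groups. With arrays centred they were 0.88, 0.81, 0.76, 0.87 and 0.76 over all 24. The least alike was miR-2985 (r = -0.86), whose mean was 8.33 in vehicle males at day 28 and 4.00 to 7.03 in the other groups. The group means share vehicle and treated arrays of 1 series, and no test was made of these likenesses.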

How the data were processed

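Agilent miRNA arrays of urothelium from 116 rats were analysed as deposited log2 values, 1 per miRNA and array. RMA and limma were used upstream, versions unnamed, per the submitters' processing notes. Base 2 was taken from the range of values, and background correction, probe summary, filter and detection calls are not stated in the sources used here. Groups were taken from the labels (treatment, sex and day), and replicate numbers were not used to pair rats. All 55 contrasts were fitted with limma 3.58.1 in R 4.3.3, with 1 mean for each of 24 groups, so each SE rests on a variance shared by all groups (92 residual and 2.33 prior degrees of freedom). P-values were two-sided and adjusted by Benjamini-Hochberg over 301 miRNAs within each contrast, at 0.05. Exact permutation tests compared the arrays of contrasts between 2 groups. The fit was tested on simulated data. Every member was named, and miRNAs alike were the 5 with the highest and the 1 with the lowest correlation of group means. Members, lists and relatives were chosen with earlier results of these data known, and 1 alternative (the male day-28 arrays left out) was added after the data were seen. Alternatives were to keep failed arrays, centre arrays, quantile-normalize, add the array median as a covariate, keep brighter miRNAs, fit only the compared groups, block by replicate number, use the exact test, and leave out each array. The number of arrays and the floor limit precision. Sequences and hairpin positions came from RefSeq tables of GRCr8.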

Additional observations from a re-analysis of the deposited data

Results flagged for a closer look

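In 161 sets of 4 or 5 arrays (7 members in 23 groups), the farthest array of a member stood apart from the rest by Dixon's ratio in 32. Chance flags about 1 in 20 such sets when their values are normally distributed. The members share arrays and some values lie near the floor, so the 32 are not separate flags to set against that rate. Each level below is a log2 value of 1 rat against the others of its group, and causes were not tested.

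Arrays with a low median held many of these. Vehicle female replicate 2 of day 90, with the lowest array median (3.7), was low for miR-17-5p (3.34), miR-20a (4.37), miR-19b (3.68) and miR-92a (3.56). Vehicle female replicate 1 of day 3 (array median 3.74) was low for miR-18a (3.38), miR-19a (3.85) and miR-20a (4.71). Rosiglitazone female replicate 4 of day 28 (3.87) was low for miR-19a (3.52), miR-20a (6.01) and miR-92a (5.22). Rosiglitazone male replicate 4 of day 28 (3.76) was low for miR-19a (4.25) and miR-20a (4.72). Rosiglitazone male replicate 3 of day 90 (3.80) was low for miR-19a (3.82). Pioglitazone 63 female replicate 2 of day 28 (3.80) was low for miR-17-5p (3.83) and miR-92a (3.80).

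Pioglitazone 16 male replicate 5 of day 90 (array median 3.81) was low for miR-17-5p (3.40), miR-18a (3.62), miR-19b (4.13) and miR-92a (3.17). Pioglitazone 16 male replicate 1 of day 28 (3.87) was low for miR-20a (7.15) and miR-19b (7.33). Pioglitazone 16 female replicate 1 of day 90 (4.53) was low for miR-17-5p (3.71) and miR-19b (3.79). Vehicle female replicate 5 of day 28 (4.29) was low for miR-19a (7.01) and miR-92a (8.76).

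On arrays with a median of 4.72 or more, miR-18a was low at 3.24 in pioglitazone 63 female replicate 5 of day 90 and at 4.52 in rosiglitazone male replicate 3 of day 3. miR-20a was low at 6.87 in rosiglitazone female replicate 5 of day 3, and miR-17-1-3p at 3.04 in vehicle female replicate 5 of day 3. miR-92a was high at 9.13 in pioglitazone 63 female replicate 2 of day 90. Vehicle male replicate 1 of day 28, the brightest of its group (4.82), was high for miR-17-5p (7.53) and miR-20a (8.89). Without it the pioglitazone 63 differences in males at day 28 were 3.48 for miR-17-5p and 2.90 for miR-20a.

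Differences from vehicle at day 28 that differed between the sexes by limma's test of the difference were those of miR-19a with pioglitazone 63 (3.34), rosiglitazone 10 (3.72) and pioglitazone 16 (3.73). For miR-19b they were those with pioglitazone 63 (5.70) and pioglitazone 16 (7.70). All 5 are the male difference minus the female difference and rest on the same vehicle arrays.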

How the results depend on the processing

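Counts are of members that passed, and the cause of each move was not tested unless the setting holds fewer arrays or miRNAs. In males at day 28, the 5 with pioglitazone 63 became 0 by the exact permutation test, 3 with only the groups compared and 3 with the replicate block. The 1 with rosiglitazone 10 became 3 with the array median as a covariate, 2 with arrays centred, 0 by the exact test, 3 with the failed arrays kept, 0 with only the groups compared and 3 with quantile normalization. The 2 with pioglitazone 16 became 0 with only the groups compared and 0 with the replicate block. The exact test also gave 0 there, but with 4 against 4 arrays it could hardly pass after adjustment. The 0 in the mean effect of pioglitazone 63 became 1 with the covariate and 1 with quantile normalization. For vehicle males at day 28 against days 3 and 90, the 5 became 2 with the covariate and 2 with the replicate block. Of the sex differences in treatment effect at day 28, the 2 with pioglitazone 63 became 4 with the failed arrays kept. The 1 with rosiglitazone 10 became 2 with them kept, 0 with only the groups compared and 3 with quantile normalization. The 2 with pioglitazone 16 became 1 with the covariate, 4 with the failed arrays kept, 1 with only the groups compared and 0 with the replicate block. The 1 call over treated rats for day 28 against days 3 and 90 became 3 with the covariate, 2 with the failed arrays kept and 0 with the brighter miRNAs alone, among which miR-18a and miR-17-1-3p were not tested. Leaving out 1 array gave 2 to 5 (pioglitazone 63), 1 to 3 (rosiglitazone 10) and 0 to 3 (pioglitazone 16) in males at day 28, 0 to 1 for the mean of pioglitazone 63, 3 to 5 for vehicle males at day 28, 4 to 6 for vehicle males against females at day 28, and 1 to 4, 1 to 3 and 0 to 4 for the sex differences with pioglitazone 63, rosiglitazone 10 and pioglitazone 16. Signs turned for miR-17-5p in vehicle males, day 28 minus days 3 and 90, at 0.33 with the covariate, and for miR-17-1-3p with arrays centred, at 1.03 in that contrast and 0.63 in vehicle males minus females. Replicate numbers were not used to pair rats, and the labels do not say what they mark. Deviations of same-numbered arrays had a median correlation of 0.04 (168 pairs, -0.78 to 0.79). Those of differently numbered ones had -0.05 (673 pairs, -0.79 to 0.89). Such spread cannot settle whether a number marks a shared block. The block moved no count other than those given by over 1.5 times. With the male day-28 arrays out, an alternative added after seeing the data, the mean effects and the other 15 comparisons stayed at 0.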
